A study of Mus musculus with 16 samples.

Results

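The 10 genes described here, Sgk1, Ddit4, Errfi1, Zbtb16, Pdk4, Glul, Mt1, Mt2, Cdkn1a and Cdkn1c, are known targets of glucocorticoids in other tissues, with roles in metabolism, stress responses and growth control. They were chosen by name from the 39179 genes of the count data, and each of the 10 was found once, by its Ensembl mouse gene identifier on GRCm38. RNA was sequenced from bone marrow-derived mast cells (BMMCs), mast cells grown from the marrow of male C57BL/6 mice aged 8 to 10 weeks and used after 4 weeks in culture. The cells were PEP+/+ (wild-type) or PEP-/-, which lack the PEST-domain-enriched tyrosine phosphatase encoded by Ptpn22. All 16 samples received immunoglobulin E (IgE, 0.05 µg/ml in the labels, a dose for which the methods of the study give a higher value) for 3 h. IgE BMMCs received nothing else, IgE DNP BMMCs were activated with the antigen dinitrophenol (DNP, 200 ng/ml) for 1 h, IgE DEX BMMCs received the synthetic glucocorticoid dexamethasone (DEX, 100 nM) for 8 h, and IgE DNP DEX BMMCs received both. Each of the 8 conditions had 2 biological replicates, 1 titled with a number (replicate 1) and 1 with a letter (replicate 2). How many mice or cultures these came from was not given in the sources used here, so the p-values measure the spread between these samples, and cultured BMMCs are a model of mast cells without their tissue.

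Glucocorticoids enter the cell and bind the glucocorticoid receptor, which moves to the nucleus and raises transcription of genes near its binding sites or, often through other factors, lowers it. In mast cells, crosslinking of IgE by antigen starts kinase and calcium signalling that induces immediate early genes within an hour, and glucocorticoids are used as antiallergic drugs that dampen this activation. The genes here act at different points of cell physiology. Ddit4 (REDD1) inhibits the growth kinase complex mTORC1, Glul (glutamine synthetase) makes glutamine from glutamate, and Pdk4 inhibits pyruvate dehydrogenase. Mt1 and Mt2 (metallothioneins) bind zinc and other metals, Zbtb16 (PLZF) is a BTB zinc finger transcription factor, Sgk1 is a kinase that regulates ion transport and survival, Errfi1 (MIG6) is a feedback inhibitor of epidermal growth factor receptors, and Cdkn1a (p21) and Cdkn1c (p57) inhibit cyclin-dependent kinases.

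The samples held 8612531 to 22143526 counts on genes (median 12814043.5). Reads of Ptpn22 numbered 130 to 2799 in the PEP+/+ samples and 0 to 55 in the PEP-/- samples. Mast cell markers summed to 66800 to 109000 CPM (read counts divided by the library size as scaled for composition), and all 10 were detected. Of the other cell types, neutrophil markers summed to 0.147 to 1.05 CPM, macrophage or monocyte markers to 2.43 to 9.08 CPM, lymphocyte markers to 0 to 0.881 CPM and erythroid markers to 1.83 to 10.7 CPM, with Camp, C1qa, Cd209a, Cd3e, Trbc2 and Ms4a1 among those at 0 in every sample. The 4 basophil markers moved with DEX, from a sum of 539 to 883 CPM without DEX to 229 to 479 CPM with it. The 5 dendritic cell markers summed to 4.92 to 19.5 CPM without DEX and to 1.17 to 7.75 CPM with it. Their sum also differed by title set, with 1.17 to 6.92 CPM in the numbered and 5.09 to 19.5 CPM in the lettered samples. The part of these markers in the results below was not tested. In these bulk samples, fewer cells of a type and less RNA per cell cannot be told apart.

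DEX changed most of the tested genes among the 10, with only increases called in sensitized BMMCs and both directions in activated BMMCs. Of the 10 genes, 8 passed the filter on low counts and were tested, and Pdk4 and Cdkn1c did not pass. Zbtb16 passed only through the samples with DEX, where it was high, so it had to differ and is not counted among the called genes. In sensitized BMMCs (IgE DEX against IgE, both genotypes averaged), Ddit4, Glul, Mt1 and Mt2 increased, 4 of the 10 genes, where 5.40% of all 13305 tested genes were called higher. In activated BMMCs (IgE DNP DEX against IgE DNP), the same 4 increased, where 5.67% of genes were called higher, and Sgk1, Errfi1 and Cdkn1a decreased, where 4.99% were called lower. Genes were called where edgeR's quasi-likelihood test gave an adjusted p under 0.05. DNP without DEX increased Sgk1, Errfi1, Glul and Cdkn1a, 4 of the 10 genes, and decreased 1, Ddit4, where 9.07% of all genes were called higher and 7.58% lower. Under DEX, DNP increased Errfi1, Glul, Mt1, Mt2 and Cdkn1a and decreased Ddit4, where 7.19% of genes were called higher and 5.42% lower. The comparisons of DEX share samples with those of DNP and were not set against each other. Levels in each sample and the fold changes are drawn in the plots of normalised read count and of log2 fold change.

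**Figure D1:**
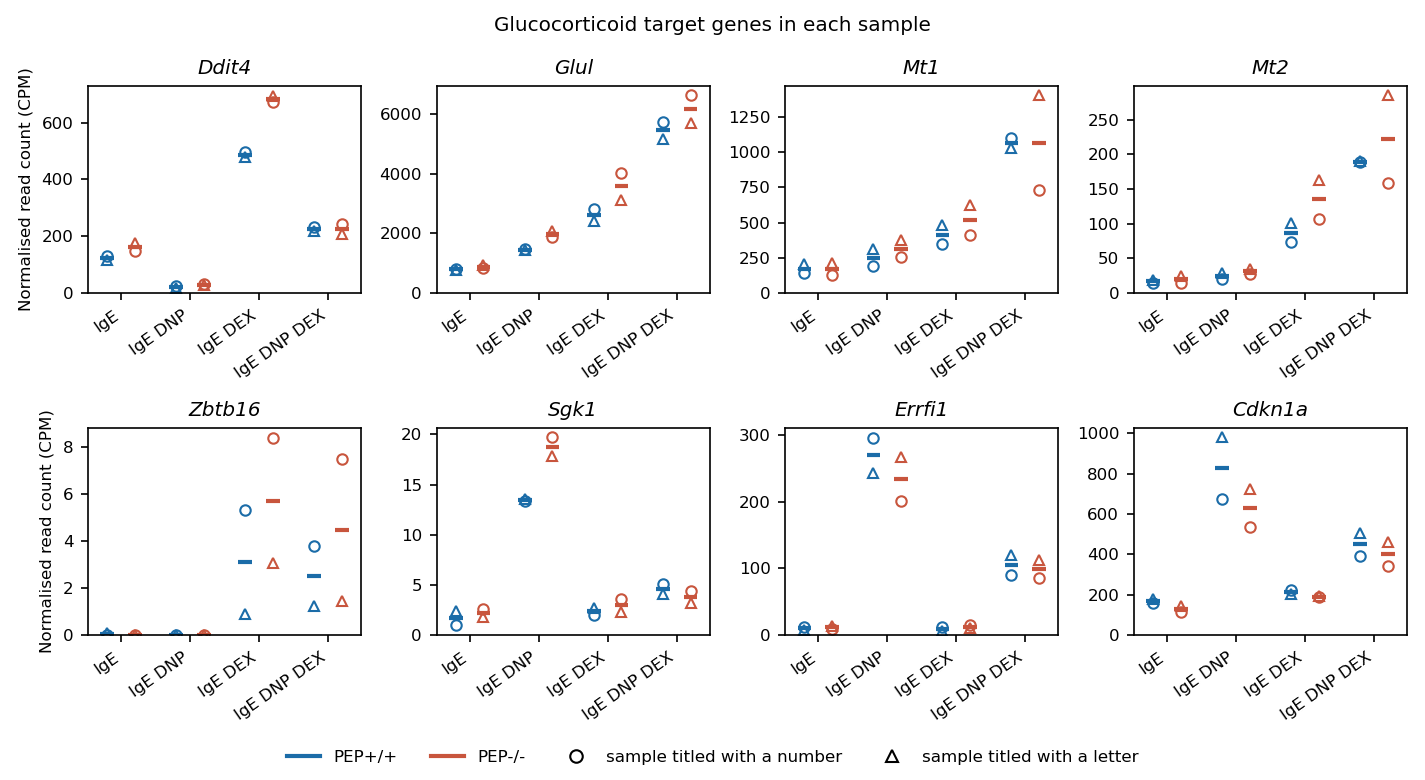
Normalised read count (CPM, linear axes that start at 0) of 8 genes in each of the 16 samples by treatment, with PEP+/+ in blue, PEP-/- in red, circles for samples titled with a number, triangles for those titled with a letter and bars for the mean of 2. Ddit4, Glul, Mt1, Mt2 and Zbtb16 are higher in the DEX groups, and Sgk1, Errfi1 and Cdkn1a are highest in IgE DNP BMMCs.

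**Figure D2:**
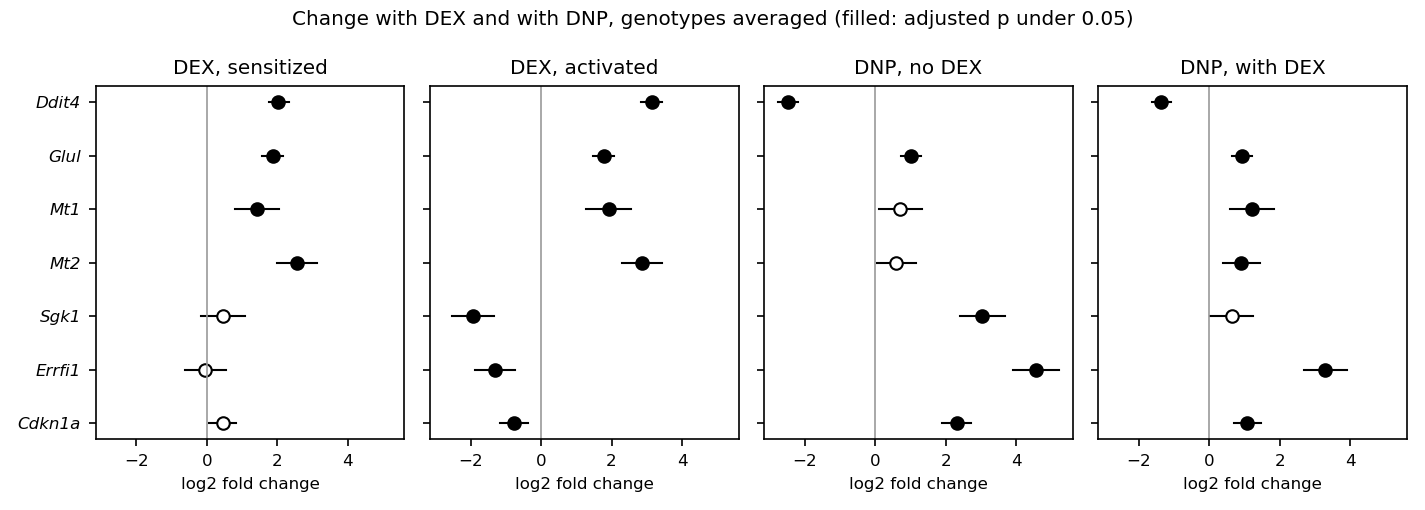
Log2 fold change (points) with its 95% confidence interval (lines) of 7 genes for DEX in sensitized and activated BMMCs and for DNP without and with DEX, genotypes averaged, each from 4 samples against 4. Filled points have an adjusted p under 0.05, and filled points below 0 are those of Sgk1, Errfi1 and Cdkn1a for DEX in activated BMMCs and of Ddit4 for both DNP comparisons.

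Ddit4 moved up with DEX and down with DNP. It lies on chromosome 10 (59949669-59951834, minus strand). After IgE it had 129 and 116 CPM in PEP+/+ and 148 and 176 CPM in PEP-/- BMMCs. One hour of DNP brought it to 24.1 and 19.1 CPM in PEP+/+ and 31.8 and 28.1 CPM in PEP-/- BMMCs. The groups did not overlap, and all 4 differences between samples of the same genotype and the same title set (same-titled differences) were decreases. The decrease was 5.53-fold (log2 fold change -2.47 ± 0.13 (SE), edgeR adjusted p = 5.02e-07). With DEX alone the values were 495 and 479 CPM in PEP+/+ and 671 and 695 CPM in PEP-/- BMMCs, 4.09-fold above IgE (2.03 ± 0.13, adjusted p = 2.41e-06). With DEX and DNP they were 234 and 217 CPM in PEP+/+ and 243 and 208 CPM in PEP-/- BMMCs. This was 8.85-fold above IgE DNP (3.15 ± 0.14, adjusted p = 2.04e-07) and 2.56-fold below IgE DEX (-1.36 ± 0.13, adjusted p = 6.11e-05). Every activated sample with DEX stood above the sensitized samples without DEX. Within the numbered samples the log2 changes with DEX were 2.06 and 3.10, and within the lettered samples 2.01 and 3.19.

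Glul, whose enzyme makes glutamine, was increased by each agent. It lies on chromosome 1 (153899944-153909723, plus strand), where Teddm2 lies on the other strand. Counts after IgE were 807 and 775 CPM in PEP+/+ and 845 and 935 CPM in PEP-/- BMMCs. After DNP they were 1465 and 1429 CPM in PEP+/+ and 1890 and 2087 CPM in PEP-/- BMMCs. After DEX they were 2829 and 2431 CPM in PEP+/+ and 4024 and 3138 CPM in PEP-/- BMMCs. The 4 treatments formed separate ranges, with the highest values under both agents. These were 5742 and 5173 CPM in PEP+/+ and 6655 and 5722 CPM in PEP-/- BMMCs. The increase with DEX was 3.66-fold in sensitized (log2 fold change 1.87 ± 0.14, edgeR adjusted p = 8.07e-06) and 3.43-fold in activated BMMCs (1.78 ± 0.14, adjusted p = 1.13e-05). DNP increased it 2.02-fold without DEX (adjusted p = 0.00038) and 1.89-fold with DEX (adjusted p = 0.0011). The difference between both changes with DEX was -0.09 on the log2 scale, with a 95% confidence interval of -0.51 to 0.32.

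Pdk4, the third metabolic gene, was near the limit of detection. It lies on chromosome 6 (5483351-5496309, minus strand) and had 2 to 9 reads per sample (0.173 to 0.757 CPM), with 0.187 to 0.521 CPM in the samples with DEX. Cdkn1c (chromosome 7, 143458339-143461050, minus strand) had 0 to 4 reads and was at 0 in 6 samples. A count of 0 allows up to 0.391 CPM in the shallowest and 0.126 CPM in the deepest sample, from counting error alone. Neither gene was tested. Mean Pdk4 was 0.435 CPM without and 0.333 CPM with DEX in sensitized BMMCs, and 0.485 and 0.318 CPM in activated BMMCs. Mean Cdkn1c was, in the same order, 0.0312 and 0.0641 CPM in sensitized and 0.192 and 0.143 CPM in activated BMMCs. No sample with DEX passed 0.521 CPM for Pdk4 or 0.381 CPM for Cdkn1c, so no large increase was seen. Smaller changes could not be judged from so few reads.

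The metallothionein genes Mt2 (chromosome 8, 94172664-94173568, plus strand) and Mt1 (94179082-94180327, plus strand) are neighbours with 5513 bases between them. They are related in sequence, so the split of reads between them is uncertain. Over the whole genome, 21.45% to 37.76% of each sample's counts were set aside as alignments to more than 1 place. This share moved with treatment, from 21.45% to 25.56% after IgE, 25.1% to 27.66% after DEX and 24.0% to 31.52% after DNP to 30.3% to 37.76% after both agents, and its part in the values of Mt1 and Mt2 was not tested. A metal response element is the promoter sequence through which zinc acts on these genes, by the transcription factor MTF1. The 250 bases before the RefSeq start of Mt2 (chr8:94172368-94172617, GRCm38.p6, plus strand) are shown because they hold 3 matches to its core, TGCACNC or TGCGCNC on either strand, which are in capitals. The whole window also lies in annotated exon sequence, counted over exons of any gene, and the antisense gene Gm45774 overlaps Mt2 on the other strand.

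Mt2: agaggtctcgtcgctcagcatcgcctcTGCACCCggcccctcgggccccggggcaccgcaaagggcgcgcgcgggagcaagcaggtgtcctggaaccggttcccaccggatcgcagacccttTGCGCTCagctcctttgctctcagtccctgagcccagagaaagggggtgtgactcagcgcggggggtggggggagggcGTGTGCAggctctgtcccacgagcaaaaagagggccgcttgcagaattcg

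Such a core is in 21.4% of the 32817 windows of this length before RefSeq starts, and the window of Mt1 holds 1. The Mt2 window also holds 1 AP-1 site, TGANTCA, found in 6.8% of windows. A match describes the letters and does not show a bound site.

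Mt2 went from 14.5 and 19.3 CPM in PEP+/+ and 15.0 and 25.0 CPM in PEP-/- BMMCs after IgE to 73.2 and 101 CPM and 107 and 163 CPM after DEX. This increase was 5.89-fold (log2 fold change 2.56 ± 0.26, edgeR adjusted p = 8.67e-05), with all samples with DEX above those without. In activated BMMCs it went from 20.8 and 28.9 CPM in PEP+/+ and 28.1 and 34.9 CPM in PEP-/- to 189 and 190 CPM and 158 and 285 CPM, 7.30-fold higher (2.87 ± 0.26, adjusted p = 4.29e-05). Mt1, the more abundant of the pair, increased too. After IgE it had 139 and 208 CPM in PEP+/+ and 130 and 211 CPM in PEP-/- BMMCs, and after DEX 347 and 480 CPM and 412 and 627 CPM, a 2.70-fold increase (1.43 ± 0.28, adjusted p = 0.00803). After DNP it had 193 and 311 CPM in PEP+/+ and 254 and 376 CPM in PEP-/- BMMCs, and after both agents 1099 and 1029 CPM and 730 and 1407 CPM, a 3.78-fold increase (1.92 ± 0.29, adjusted p = 0.00151). Within each state, no Mt1 value with DEX overlapped with those without it. The ratio of Mt1 to Mt2 reads was 8.43 to 10.8 in the 8 samples without DEX and 3.84 to 5.83 in the 8 with DEX, a pattern seen after the values and not tested.

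With DNP and no DEX, neither metallothionein passed the threshold. Here the 95% confidence interval of the log2 fold change was 0.10 to 1.33 for Mt1 (0.71, edgeR adjusted p = 0.118) and 0.06 to 1.15 for Mt2 (0.60, adjusted p = 0.135), with overlapping groups. All 4 same-titled differences were increases for both, and with the numbered and lettered sets as a block the adjusted p was 0.00063 for Mt1 and 0.00151 for Mt2, where 37.9% of all genes were called. Under DEX, Mt1 increased 2.30-fold (1.20 ± 0.28, adjusted p = 0.0177) and Mt2 1.88-fold (0.91 ± 0.24, adjusted p = 0.0316). For this change, edgeR's adjusted p with the block was 8.16e-06 for Mt1 and 3.21e-05 for Mt2, where 37.6% of all genes were called. In DESeq2 it was 0.000522 for Mt1 and 0.00469 for Mt2, where 15.9% of genes were called. These last calls were thin in the edgeR fit without the block. Mt1 lost its call without any 1 of 4 samples, namely PEP+/+ IgE DEX, PEP+/+ IgE DNP DEX or PEP-/- IgE DEX replicate 1 or PEP-/- IgE DNP DEX replicate 2 (adjusted p up to 0.0768). Mt2 lost it without any 1 of those or of PEP+/+ IgE DEX or PEP+/+ IgE DNP DEX replicate 2 (adjusted p up to 0.136). Both genes were lower in the numbered than the lettered sample of nearly every condition, in all but 1 of 8 for Mt1 and in 8 of 8 for Mt2.

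Zbtb16, the gene of a factor that directs several blood cell lineages, was nearly absent without DEX. It lies on chromosome 9 (48654297-48836222, minus strand). Of the 8 samples without DEX, 7 had no read and PEP+/+ IgE replicate 2 had 1. With DEX alone it had 5.34 and 0.883 CPM in PEP+/+ and 8.40 and 3.05 CPM in PEP-/- BMMCs. With DEX and DNP it had 3.78 and 1.25 CPM in PEP+/+ and 7.51 and 1.43 CPM in PEP-/- BMMCs. In sensitized BMMCs 1 read stood against 295 reads, a ratio of 240 after scaling for depth (95% interval of counting error 42.8 to 9520). In activated BMMCs 0 reads stood against 160, a ratio of 56.6 with 3 counts over the 4 samples as the floor for the 0. That floor covers counting error alone and leaves out the spread between samples. Of the 160 reads, 96 were from PEP-/- IgE DNP DEX replicate 1. Samples with DEX were uneven, and the numbered sample was above the lettered one in all 4 conditions, with 3.78 to 8.40 CPM against 0.883 to 3.05 CPM. DNP under DEX gave a log2 fold change of -0.35 for Zbtb16, with a 95% confidence interval of -2.07 to 1.37.

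Sgk1, Errfi1 and Cdkn1a shared another pattern, with high values after DNP and lower values after DNP with DEX. Sgk1 lies on chromosome 10 (21882184-21999903, plus strand) and has several starts. A glucocorticoid response element is the palindrome that the receptor binds as a pair, here searched as AGAACA and TGTTCT with any 3 bases between them. It was found in 3 of the 32817 windows of 250 bases before RefSeq starts (0.009%), and 1 of these 3 belongs to Sgk1. The window (chr10:21993640-21993889, GRCm38.p6, plus strand) precedes the start of a shorter Sgk1 transcript at 21993890 and lies in an intron of longer ones, and the match, in capitals, begins 965 bases before the most downstream Sgk1 start.

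Sgk1: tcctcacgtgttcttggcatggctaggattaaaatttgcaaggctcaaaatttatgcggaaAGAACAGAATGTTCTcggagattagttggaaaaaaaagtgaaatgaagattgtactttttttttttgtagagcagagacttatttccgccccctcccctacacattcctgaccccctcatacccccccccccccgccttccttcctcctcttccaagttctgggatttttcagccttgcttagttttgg

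Of the 10 genes, 8 had RefSeq windows, 15 windows in all, and this was the only full palindrome among them. The single arm AGAACA, on either strand, is in 16.1% of all windows. Matches in these windows do not show where the receptor was bound in BMMCs.

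Sgk1 itself was low after IgE, with 1.03 and 2.43 CPM in PEP+/+ and 2.64 and 1.75 CPM in PEP-/- BMMCs. DEX alone left it at 2.02 and 2.69 CPM in PEP+/+ and 3.63 and 2.34 CPM in PEP-/- BMMCs. These groups overlapped, and the log2 fold change of 0.47 had a 95% confidence interval of -0.16 to 1.09 (edgeR adjusted p = 0.445). DNP brought Sgk1 to 13.4 and 13.6 CPM in PEP+/+ and 19.7 and 17.8 CPM in PEP-/- BMMCs, 8.22-fold above IgE (3.04 ± 0.29, adjusted p = 3.77e-05). With DEX and DNP it had 5.08 and 4.06 CPM in PEP+/+ and 4.38 and 3.24 CPM in PEP-/- BMMCs, 3.82-fold below IgE DNP (-1.93 ± 0.28, adjusted p = 0.0011). DNP under DEX gave a log2 fold change of 0.64 with a 95% confidence interval of 0.03 to 1.25 (adjusted p = 0.169).

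Errfi1, on chromosome 4 (150853919-150868892, plus strand), had the largest increase with DNP of the 7 genes tested for it. The 250 bases before one of its RefSeq starts (chr4:150854820-150855069, GRCm38.p6, plus strand) are shown because they hold a cyclic AMP response element, TGACGTCA, in capitals, a sequence bound by CREB and related factors. It begins 51 bases before the start and is in 1.5% of windows. Annotated exons of any gene cover 124 of these bases, and 1700045H11Rik overlaps Errfi1 on the other strand.

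Errfi1: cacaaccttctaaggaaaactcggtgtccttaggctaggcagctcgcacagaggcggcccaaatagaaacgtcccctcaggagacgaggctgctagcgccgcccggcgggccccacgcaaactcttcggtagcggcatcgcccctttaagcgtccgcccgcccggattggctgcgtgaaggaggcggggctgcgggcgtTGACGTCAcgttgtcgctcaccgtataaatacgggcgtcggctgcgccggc

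A TATA box, TATAAA, begins 28 bases before the same start and is in 12.4% of windows.

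Errfi1 had 12.0 and 7.63 CPM in PEP+/+ and 9.65 and 13.4 CPM in PEP-/- BMMCs after IgE. After DNP it had 296 and 243 CPM in PEP+/+ and 201 and 267 CPM in PEP-/- BMMCs, a 23.5-fold increase (log2 fold change 4.56 ± 0.30, edgeR adjusted p = 2.02e-06). No change with DEX alone was detectable, with 11.8 and 5.51 CPM in PEP+/+ and 15.0 and 9.87 CPM in PEP-/- BMMCs (-0.04, 95% confidence interval -0.62 to 0.54, adjusted p = 0.974). With both agents it had 90.2 and 120 CPM in PEP+/+ and 85.3 and 112 CPM in PEP-/- BMMCs. This was 2.46-fold below IgE DNP (-1.30 ± 0.26, adjusted p = 0.00817), without overlap, and 9.81-fold above IgE DEX (3.29 ± 0.28, adjusted p = 3.33e-05).

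Cdkn1a, on chromosome 17 (29090976-29100727, plus strand), started higher. It had 157 and 177 CPM in PEP+/+ and 112 and 144 CPM in PEP-/- BMMCs after IgE, and DNP raised it to 675 and 983 CPM and 536 and 725 CPM, 4.95-fold (log2 fold change 2.31 ± 0.18, edgeR adjusted p = 1.0e-05). With DNP and DEX it had 392 and 507 CPM in PEP+/+ and 340 and 459 CPM in PEP-/- BMMCs, 1.71-fold below IgE DNP (-0.77 ± 0.18, adjusted p = 0.0176) and 2.11-fold above IgE DEX (1.08 ± 0.18, adjusted p = 0.00241). The decrease with DEX lost its call without any 1 of 4 samples, PEP+/+ or PEP-/- IgE DNP DEX replicate 1 or PEP+/+ or PEP-/- IgE DNP replicate 2 (adjusted p up to 0.0836), and when only the compared conditions entered the fit (adjusted p = 0.0917). For the same decrease, edgeR's adjusted p was 0.00012 with the replicate sets as a block, where 33.3% of all genes were called. DESeq2 gave it an adjusted p of 0.000744, where 13.0% of genes were called. With DEX alone Cdkn1a had 222 and 202 CPM in PEP+/+ and 187 and 192 CPM in PEP-/- BMMCs, above every IgE sample. That log2 fold change of 0.46 had an adjusted p of 0.164, and of 0.00599 with the replicate sets as a block, where 26.7% of genes were called.

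The change with DEX differed between activated and sensitized BMMCs for Sgk1 and Ddit4. The difference of the log2 fold changes was -2.40 ± 0.40 for Sgk1 (edgeR adjusted p = 0.0346) and 1.11 ± 0.18 for Ddit4 (adjusted p = 0.0276), 2 of the 10 genes, where 0.331% of all genes were called. Both calls were thin. Sgk1 passed the threshold in only 1 of the 16 fits without a sample, that without PEP+/+ IgE replicate 2, and its value ranged from -2.77 to -2.15 (adjusted p 0.0239 to 0.129). Ddit4 passed in 2 of 16, without PEP+/+ IgE DNP replicate 1 or PEP-/- IgE DNP DEX replicate 2, and ranged from 1.04 to 1.23 (adjusted p 0.0315 to 0.129). With the replicate sets as a block, the adjusted p was 0.000969 for Sgk1 and 0.000744 for Ddit4. In DESeq2 it was 2.82e-06 for Sgk1 and 5.07e-07 for Ddit4, where 0.592% of genes were called. Cdkn1a differed by -1.23 ± 0.25 with an adjusted p of 0.0961, of 0.000744 with the block, where 1.57% of genes were called, and of 0.00123 in DESeq2. It was higher with DEX in 4 of 4 sensitized and lower in 4 of 4 activated same-titled differences. For Errfi1 the difference was -1.26 with a 95% confidence interval of -2.07 to -0.45 (adjusted p = 0.552), for Mt1 0.49 (-0.38 to 1.35) and for Mt2 0.31 (-0.45 to 1.07).

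Per kilobase of exon, Glul was the most abundant of the 10 genes in every treatment and Sgk1 the least abundant of the 7 tested genes other than Zbtb16. After IgE, the level of Glul (233 to 281 CPM per kilobase) stood above Mt1 (104 to 169), Ddit4 (65.9 to 100), Cdkn1a (31.5 to 49.9) and Mt2 (24.6 to 42.6). The neighbours Cdkn1a and Mt2 overlapped. Errfi1 (2.13 to 3.75), Sgk1 (0.21 to 0.539) and Pdk4 (0.0494 to 0.188) followed without overlap. Under DNP and DEX the order by level was Glul (1560 to 2000), Mt1 (586 to 1130), Mt2 (268 to 484), then Ddit4 (118 to 138) and Cdkn1a (95.6 to 143), which overlapped, Errfi1 (23.8 to 33.6), and Sgk1 (0.66 to 1.04) and Zbtb16 (0.236 to 1.42), which overlapped. With the longest transcript as the length, the median level of Cdkn1a was 72.2 after IgE (42.3 with all exons), beside 78.9 for Ddit4 and 33.5 for Mt2. Under both agents it was 205 (120 with all exons), beside 128 for Ddit4, and that of Sgk1 was 1.36 (0.861 with all exons). The mean level of Glul was above that of 98.9% of tested genes after IgE and 99.8% under both agents. That of Ddit4 stood above 96.4% after IgE, 76.2% after DNP and 99.0% after DEX. The level of Sgk1 was above 11.8% of genes after IgE and 43.7% after DNP, so its large fold change stayed at a low level.

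**Figure D3:**
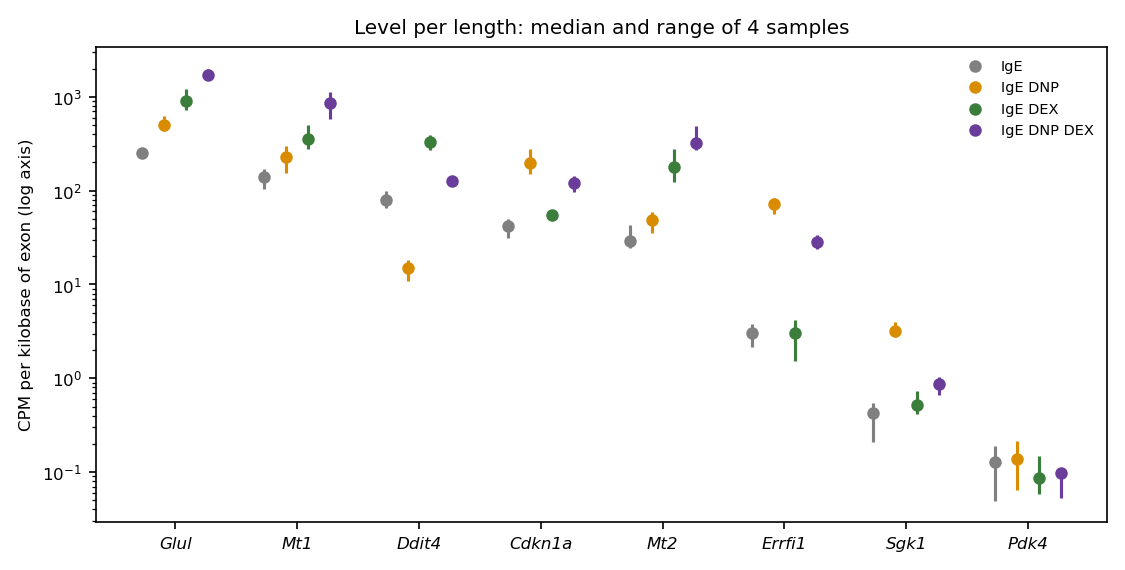
Level per length (CPM per kilobase of exon, log axis) of 8 genes by treatment, with points for the median and lines for the range of 4 samples, genotypes together. Glul is highest throughout, Ddit4 is lowest after IgE DNP, and Pdk4 stays below 1 in every treatment.

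Differences between the genotypes were small. With the 4 treatments averaged, PEP-/- against PEP+/+ gave 0 of the 10 genes past the threshold, where edgeR called 1.59% of all genes. An unadjusted p under 0.05 was found for 3 of the 7 tested, and for 14.2% of all genes. Ddit4 had the smallest p, with a log2 fold change of 0.34 ± 0.09 (adjusted p = 0.085), followed by Glul with 0.31 ± 0.09 (adjusted p = 0.133). Mt2 was at 0.36 (95% confidence interval -0.02 to 0.74), Cdkn1a at -0.28 (-0.55 to 0.00), Sgk1 at 0.23 (-0.20 to 0.66), Mt1 at 0.16 (-0.27 to 0.59) and Errfi1 at 0.12 (-0.28 to 0.52). With the replicate sets as a block, 4 of the 10 were called, where 17.4% of all genes were, with Ddit4 (0.34, adjusted p = 0.00509), Glul (0.31, adjusted p = 0.013) and Mt2 (0.34, adjusted p = 0.0146) higher and Cdkn1a (-0.28, adjusted p = 0.0249) lower in PEP-/- BMMCs. DESeq2 called Ddit4 (adjusted p = 0.00569) and Glul (adjusted p = 0.00976), where it called 5.23% of genes. In the fit without the block these 4 changes lay between 1.21-fold lower (Cdkn1a) and 1.29-fold higher (Mt2).

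The changes with DEX and DNP were not shown to differ between the genotypes. The interaction of genotype with DEX and with DNP was called for 0 of the 10 genes and for 0 of all genes by edgeR and by DESeq2. In edgeR an unadjusted p under 0.05 was found for 113 genes (0.849%) and 53 genes (0.398%), and for 0 of the 10. Such shares are far below the share of 0.05 that no effect would give. The p-values of this fit, which has no term for the paired sets, were thus conservative here. Their lack of small values is weak evidence that the genotypes respond alike. With the replicate sets as a block, edgeR also called 0 of all genes for both interactions. The 95% confidence interval of the interaction with DEX (a difference of log2 fold changes, PEP-/- minus PEP+/+) was -0.58 to 0.19 for Ddit4, -0.42 to 0.41 for Glul, -0.85 to 0.88 for Mt1 and -0.63 to 0.89 for Mt2. It was -1.22 to 0.51 for Sgk1, -0.60 to 1.01 for Errfi1 and -0.32 to 0.77 for Cdkn1a. The bounds farthest from 0 were those of Sgk1 and Errfi1, at ratios of 0.43 and 2.02. For the interaction with DNP the intervals were -1.35 to 0.27 for Errfi1 (a ratio down to 0.392), -1.09 to 0.62 for Sgk1 and -0.60 to 0.18 for Ddit4. They were -0.40 to 0.43 for Glul, -0.85 to 0.88 for Mt1, -0.92 to 0.60 for Mt2 and -0.56 to 0.54 for Cdkn1a. In each genotype alone, the changes of the tested genes with DEX in activated BMMCs had the same sign in 7 of 7 without Zbtb16, and in sensitized BMMCs in 6 of 7, with Errfi1 at -0.19 and 0.11. Within single treatments edgeR called 0 of the 10 genes, where it called 0.00752% of all genes, with 0 to 2 of the 10 and 2.24% to 4.55% of all genes at an unadjusted p under 0.05, and DESeq2 called 0 of the 10. The largest of these estimates for Ddit4 was 0.49 after IgE DEX (95% confidence interval 0.10 to 0.87), and after IgE DNP DEX it was 0.00 (-0.38 to 0.38). Zbtb16 gave 0.91 (-1.49 to 3.31) after IgE DEX and 0.88 (-1.60 to 3.36) after IgE DNP DEX.

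**Figure D4:**
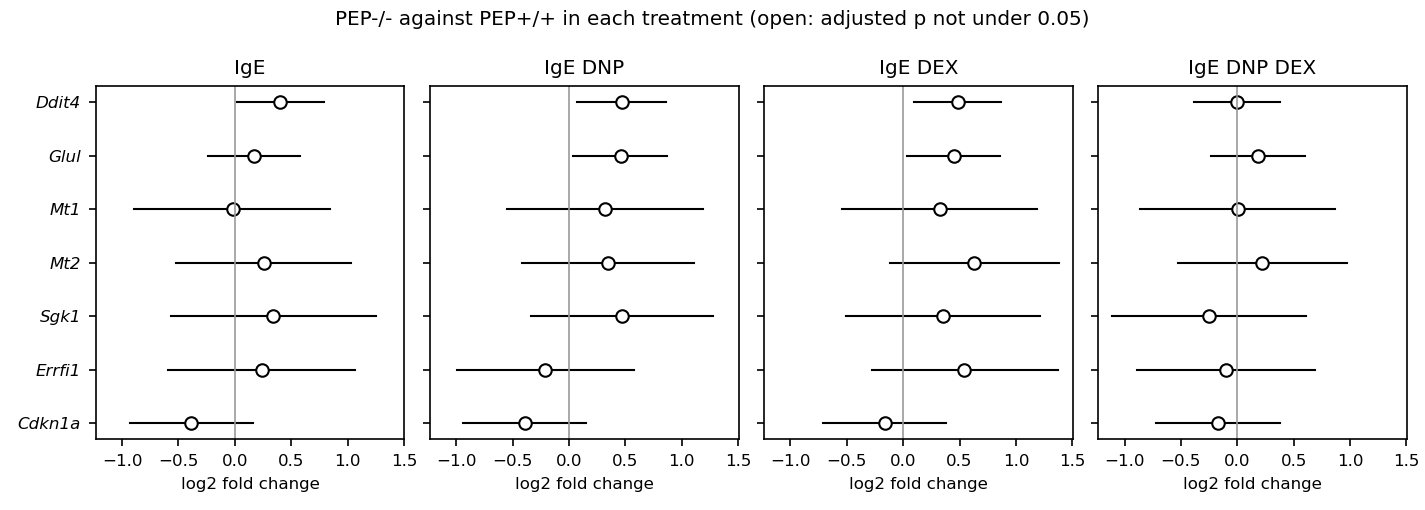
Log2 fold change of PEP-/- against PEP+/+ BMMCs (points) with its 95% confidence interval (lines) of 7 genes within each treatment, from 2 samples against 2. All points are open, as none had an adjusted p under 0.05, and the estimates for Ddit4 lie from 0.00 to 0.49.

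Counts from the gene lists below stand beside these shares over all genes. With DEX, 5.40% were called higher and 3.98% lower in sensitized BMMCs, and 5.67% and 4.99% in activated BMMCs. With DNP, 9.07% were called higher and 7.58% lower without DEX, and 7.19% and 5.42% under DEX. Of 25 other classic glucocorticoid-induced genes, 20 were tested. In sensitized BMMCs 12 of them were higher and 1 lower with DEX (median log2 fold change 1.36, against 0.00 over all genes), and in activated BMMCs 8 were higher and 1 lower (0.70, against -0.01). Tsc22d3 (GILZ), an anti-inflammatory leucine zipper protein, increased by 3.74 ± 0.19 on the log2 scale in activated BMMCs (edgeR adjusted p = 4.46e-07). Pik3ip1, an inhibitor of PI3 kinase, increased by 2.84 ± 0.16 (adjusted p = 1.3e-06) and decreased by 2.30 with DNP (-2.30 ± 0.16, adjusted p = 2.57e-06). Dusp1, a phosphatase of MAP kinases, increased by 4.02 ± 0.21 with DNP (adjusted p = 4.43e-07). With DNP 8 of the 20 were higher and 5 lower. The gene that was lower with DEX was Angptl4, an inhibitor of lipoprotein lipase, in sensitized BMMCs (-3.11 ± 0.29, adjusted p = 4.85e-05) and Rhob, a small GTPase gene, in activated BMMCs (-0.75 ± 0.11, adjusted p = 0.00141).

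Around Ddit4, 12 of 13 listed mTORC1 pathway genes were tested, with 2 higher and 1 lower with DEX in both states, the last being Sesn3 (-1.52 ± 0.28 in sensitized and -1.62 ± 0.28 in activated BMMCs, edgeR adjusted p = 0.0049 and 0.00391). Sesn1 (1.93 ± 0.18, edgeR adjusted p = 4.35e-05) and Deptor (1.94 ± 0.32, adjusted p = 0.00295) were the 2 that increased in activated BMMCs. With DNP, the mTORC1 activator Rheb increased (1.07 ± 0.21, adjusted p = 0.00498), and 2 decreased, Sesn2 (-1.21 ± 0.14, adjusted p = 0.000155) and Mlst8 (-1.01 ± 0.17, adjusted p = 0.00189). Around Sgk1, 7 of 9 listed SGK family and NEDD4 ligase genes were tested. DEX in activated BMMCs lowered Nedd4l (-0.98 ± 0.16, edgeR adjusted p = 0.00309), a ubiquitin ligase that SGK1 phosphorylates. DNP raised Ndrg1 (3.74 ± 0.22, adjusted p = 1.09e-06), another SGK1 substrate, with no other call in either comparison. With DEX in sensitized BMMCs, Nedd4l was also called lower and Ndrg1 higher. Of 9 listed genes of ErbB receptors and their feedback, 5 were tested. Of these, edgeR called 0 in each of the 4 comparisons of DEX and DNP, with 0 to 1 at an unadjusted p under 0.05, and DESeq2 called 0 in each.

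Around Glul, all 11 genes of glutamine metabolism and transport were tested. With DNP, 6 were called higher, among them the glutaminase gene Gls2. It had 0.0514 to 0.182 CPM after IgE and 0.656 to 1.82 CPM after DNP, and at most 0.571 CPM after both agents. Like Zbtb16, Gls2 passed the filter only through the samples where it was high, so its call was fixed by the filter and is no result. DEX in activated BMMCs called 1 higher, the amino acid transporter subunit Slc3a2 (1.25 ± 0.12, edgeR adjusted p = 8.73e-05), and 3 lower, among them Gfpt1 (-0.82 ± 0.17, adjusted p = 0.0113). Slc3a2 was also higher with DEX in sensitized BMMCs, the only call of the list there. The median of the list with DEX was -0.35 in sensitized and -0.59 in activated BMMCs, while Glul increased. Of 12 genes of pyruvate dehydrogenase control, DEX in activated BMMCs lowered 2, the kinase Pdk1 (-1.06 ± 0.29, edgeR adjusted p = 0.041) and the phosphatase Pdp1 (-0.70 ± 0.15, adjusted p = 0.0127). Pdk1 was also called lower with DEX in sensitized BMMCs. DNP raised Pdp1 (1.44 ± 0.15, adjusted p = 8.01e-05) and lowered Pdk2 (-0.67 ± 0.21, adjusted p = 0.049).

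Of 12 other metallothionein and zinc handling genes, 8 were tested. With DEX, 1 was called higher in each state, where 5.40% (sensitized) and 5.67% (activated) of all genes were. The zinc exporter Slc30a1 increased with DEX in activated BMMCs (0.70 ± 0.18, edgeR adjusted p = 0.0298), and the zinc importers Slc39a8 in sensitized BMMCs (0.98 ± 0.24, adjusted p = 0.0238) and Slc39a1 with DNP (0.82 ± 0.18, adjusted p = 0.0103). Among 8 BTB zinc finger genes beside Zbtb16, Patz1 was higher with DEX in activated BMMCs (0.66 ± 0.16, adjusted p = 0.0232) and Hic1 lower in sensitized BMMCs (-0.74 ± 0.16, adjusted p = 0.013). Of 15 cyclins, CDKs and CDK inhibitors, edgeR called 0 with DEX in sensitized BMMCs (4 at an unadjusted p under 0.05, and 2 called by DESeq2) and 2 lower in activated BMMCs, Cdk6 (-1.49 ± 0.43, adjusted p = 0.0478) and Rb1 (-0.50 ± 0.15, adjusted p = 0.049). DNP raised Cdkn2b (3.38 ± 0.47, adjusted p = 0.000496) and lowered Cdkn1b (-0.99 ± 0.19, adjusted p = 0.00448) and 2 more. Of 14 tested genes of p53 and its targets, DNP raised 5, among them Mdm2 (1.88 ± 0.18, adjusted p = 3.72e-05) and Plk3 (2.83 ± 0.36, adjusted p = 0.000269), and lowered 2. DEX in activated BMMCs called only Trp53 among them (-0.46 ± 0.11, edgeR adjusted p = 0.023). In sensitized BMMCs, Trp53 was also called lower with DEX, and Gdf15 higher.

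Across the 16 samples, the genes with the most similar log2 CPM were sought for each tested gene, as a description of points that share treatments and libraries. The values of Ddit4 ran most closely with Pik3ip1 (Pearson r = 0.988) and Cited2 (0.974), and those of Errfi1 with the DNP-induced transcription factor genes Csrnp1 (0.991) and Nr4a3 (0.989). Sgk1 ran with Rhob (0.937) and Ch25h (0.935), and Cdkn1a with Mst1r (0.980) and Gpr171 (0.978). Glul was closest to the kinase gene Lyn (0.984) and to Tg (0.976). For Mt1 the closest were Ctla2b (0.983) and Stat4 (0.964), for Mt2 Stat4 (0.992) and Zfp36l2 (0.982), and for Zbtb16 Fgr (0.989) and Tlr7 (0.983).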

How the data were processed

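RNA of 16 BMMC samples was sequenced as stranded paired reads. The methods of the study state that TopHat2 aligned the reads to GRCm38 and that HTSeq assigned them to genes. The authors deposited whole-number read counts per gene and sample, and the strand setting of the counting was not given in the sources used here. Reads aligned to several places were not counted on genes. The 5 rows that name no gene held 29.05% to 49.62% of each sample's counts and were left out. Names and coordinates were taken from GENCODE M21, which held 37607 of 39179 identifiers (95.99%). Of the genes on the other strand of members that the files list, 1700045H11Rik had 0 to 2 reads and Teddm2 0 to 6 reads per sample.

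After filterByExpr with a minimum count of 10, 13305 genes entered edgeR 4.0.16 (R 4.3.3) with TMM scaling. The quasi-likelihood functions glmQLFit and glmQLFTest were run with each condition's mean as a term, over all 16 samples, leaving 8 residual degrees of freedom. P-values were adjusted over all tested genes by Benjamini-Hochberg, with a threshold of 0.05. CPM used TMM library sizes, paired values are replicate 1 then 2, and log2 CPM used a prior count of 1. Levels per kilobase used the union of exons. The comparisons were DEX, DNP, their interaction, genotype and its interactions. The numbered and lettered sets pair the samples: deviations from the condition means correlated at 0.447 to 0.778 (median 0.699) in all 28 pairs of conditions. The pairing comes from the sample titles, which do not say what the sets are.

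As alternatives, the results were recomputed with DESeq2 1.42.0, with its size factors in edgeR, without a filter, with a filter of 10 counts in all samples, with the compared conditions alone, with the replicate block, without each sample in turn, with the longest transcript for levels, and over 8 condition means for likeness. Values within each set were added after seeing the data. In data simulated for DEX in sensitized BMMCs, edgeR recovered 89% of 200 genes with a log2 fold change of 2 among 13077 genes, and 29.5% with a log2 fold change of 1 among 13047. Promoter windows from RefSeq (GRCm38.p6) were searched in Python 3.11.15.

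The 10 genes, the lists and the tests were chosen with earlier results of these data known. All 10 genes are named in each comparison. From each list, the 2 called genes with the smallest p with DEX in activated BMMCs and with DNP without DEX are named with values, and for each tested gene the 2 with the highest r. Angptl4, Rhob in the list, Sesn3, Rheb, Slc39a8 and Hic1 were named after their values were seen. Some items that these rules would name are not reported here.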

Additional observations from a re-analysis of the deposited data

Results flagged for a closer look

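The change with DEX differed between activated and sensitized BMMCs for 2 genes, Sgk1 and Ddit4. For Sgk1 and Cdkn1a the estimates in the 2 states had opposite signs. Their increases in sensitized BMMCs were not called without the block (edgeR adjusted p = 0.445 and 0.164), so a difference in sign was not shown. For Sgk1 the difference was -2.40 on the log2 scale (edgeR adjusted p = 0.0346), with an increase in 4 of 4 same-titled differences of sensitized BMMCs, itself not past the threshold, and a decrease in 4 of 4 of activated BMMCs. For Cdkn1a it was -1.23 with the same split of signs, and the difference did not pass in edgeR (adjusted p = 0.0961) but passed in DESeq2 (0.00123), with the replicate block (0.000744) and without a filter (0.00936). For Ddit4 it was 1.11 (adjusted p = 0.0276), with increases in both states. No group was large enough for a test of single outlying samples, with 2 samples per condition.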

How the results depend on the processing

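The counts of the 10 genes called with DEX in sensitized and in activated BMMCs stayed within 1.5 times under each alternative. The same held for DNP with and without DEX and for both genotype interactions. These counts include Zbtb16, whose calls with DEX were fixed by the filter and are no sign of stability. Without it, the main fit called 4 higher with DEX in sensitized BMMCs, and 4 higher and 3 lower in activated BMMCs. For the difference of the DEX changes between activated and sensitized BMMCs, 2 genes were called, 4 without a filter, and 0 to 1 when 1 sample was left out. For genotype, 0 of the 10 were called, 4 with the replicate block and 2 by DESeq2. Over all genes, the interactions of genotype with DEX and DNP were called for 0 genes, and without a filter for 18 and 2. The block changed the calls given beside the results. In single genotypes it added calls for Mt1, Mt2, Cdkn1a, Sgk1 and Errfi1, and for Zbtb16, where the filter had fixed the outcome. It changed no other call. Without a filter Mt1 (adjusted p = 0.00899) and Mt2 (0.0408) passed with DNP, and with only the compared conditions Mt2 under DEX did not (0.0647). Changes of sign touched only values that were not called. The interaction of genotype with DEX for Mt1 became -0.03 without a filter and -0.04 with the block, that with DNP -0.02 with the block for Mt1 and 0.01 without a filter for Cdkn1a, and the genotype difference of Mt1 after IgE DNP DEX -0.02 and -0.09. With 1 sample left out, Errfi1 with DEX in sensitized BMMCs ranged from -0.36 to 0.19 and Zbtb16 with DNP under DEX from -1.14 to 0.55. Interactions of genotype with DEX ranged from -0.03 to 0.53 (Errfi1), -0.10 to 0.08 (Glul), -0.27 to 0.21 (Mt1) and -0.14 to 0.33 (Mt2), and those with DNP from -0.60 to 0.01 (Sgk1), -0.07 to 0.11 (Glul), -0.25 to 0.23 (Mt1), -0.38 to 0.05 (Mt2) and -0.11 to 0.16 (Cdkn1a). The cause of these shifts was not tested. Within the numbered and within the lettered samples, every called change kept its sign. Of the 16 pairings of a gene with a most similar gene (Stat4 is in 2), 4 were also among the 2 nearest over 8 condition means. With 2 samples per condition, modest changes could be missed.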
